A study of Mus musculus with 24 samples.

Results

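Apelin, adrenomedullin and tip cell genes were followed as a set of 8 named genes, Apln, Aplnr, Esm1, Pdgfb, Adm, Calcrl, Ramp2 and Ramp3, among 22282 genes measured in 24 RNA sequencing libraries. The set was taken as listed and not chosen on a threshold. Each gene is represented by a single RefSeq transcript in the deposited values, and 8 of 8 passed the filter for testing, an FPKM that averaged 1 or more over all libraries. FPKM is the number of fragments per kilobase of transcript, scaled to the size of the library. The libraries come from C57BL/6J mice and fall into 8 groups of 3. MACs are amniotic cells of E11.5 to E13.5 embryos, cultured from mixed embryos, and Akt-MACs are MACs given a lentivirus for constitutively active, myristoylated Akt. RACVECs are MACs converted towards endothelial cells (ECs) with lentiviral Etv2, Erg and Fli1 under the PGK promoter. The conversion was done in EC medium with VEGF-A and SB431542, an inhibitor of TGF-β receptors. The factors and any difference in medium or time in culture therefore cannot be told apart between RACVECs and MACs. Akt-RACVECs carry the same 3 factors and Akt, and Sox17-RACVECs the same 3 factors and Sox17, selected with puromycin. Akt-LECs and Akt-liver ECs are lung and liver ECs isolated with CD31 beads, cultured with Akt and sorted again for VEcad and CD31. LSECs are liver ECs sorted directly by FACS without culture or transgene. The ages of the adult animals are not given in the sources used here.

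Apelin is a secreted peptide that acts on the G protein-coupled receptor encoded by Aplnr, and in growing vessels the ligand is typically made by tip cells, the leading cells of a sprout, while the receptor is found in neighbouring endothelium. Adrenomedullin, the product of Adm, is a vasodilator and a growth factor for lymphatic and blood vessels whose transcription rises in hypoxia. Its receptor is the calcitonin receptor-like receptor, Calcrl, which needs a partner of the RAMP family at the membrane. Calcrl with Ramp2 or Ramp3 binds adrenomedullin, and Calcrl with Ramp1 binds the calcitonin gene-related peptide. Esm1 encodes endocan, a secreted proteoglycan used as a marker of tip cells, and Pdgfb encodes the growth factor with which tip cells recruit pericytes.

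A difference was called when limma gave a Benjamini-Hochberg adjusted p below 0.05 over the 14964 genes tested and a log2 fold change past 1 or -1 on the log2(FPKM + 1) scale, which understates the change of genes with a low FPKM. Over the 11 comparisons of groups, 6 calls were made among the 8 genes. Of these, 5 separated Akt-RACVECs from Akt-MACs, namely Apln, Aplnr, Calcrl, Ramp2 and Ramp3, and 1 separated Akt-liver ECs from LSECs, namely Apln. Between Akt-RACVECs and Akt-MACs 19.5% of all genes were called and 6.15% called higher. Between Akt-liver ECs and LSECs 27.0% were called and 14.1% called higher. In bulk RNA, fewer cells of a type and less RNA per cell cannot be told apart, and the depth of the libraries is unknown.

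The labels were checked before the comparisons. The summed FPKM was between 1689486 and 2317294 per library, and the median log2 shift of the groups ran from -0.08 in MACs to 0.05 in Akt-MACs. The summed FPKM of 8 endothelial markers was 51.5 to 83.9 in MACs, 34.6 to 63.5 in Akt-MACs, 1941 to 4305 in RACVECs and 12480 to 17941 in Akt-RACVECs, and Erg, a defining marker, was listed at 0 in every MAC and Akt-MAC library. The library labelled Sox17-RACVEC 2 went against its label in Etv2. The transduced Etv2 was listed at 0 in it, whereas the other 8 libraries of converted cells had an FPKM of Etv2 between 127 and 860. Its FPKM of Erg, another of the 3 transduced factors and itself an endothelial marker, was 387, unlike the other 2 Sox17-RACVEC libraries. Erg was 4.49 and 0 in Sox17-RACVEC 1 and 3 and 3.91, 13.8 and 0.90 in RACVECs, although these cells were transduced with it too, and it was 395 to 1002 in Akt-RACVECs. Fli1, the other transduced factor, was 178 to 434 in all 9 libraries of converted cells and 0 to 1.61 in MACs. In the Akt-LECs, Akt-liver ECs and LSECs, Etv2 was listed at 0, Erg was 176 to 583 and Fli1 was 139 to 426. Akt1 was 1323 in Sox17-RACVEC 2, the highest of the 24 libraries. What cells this library holds was not tested. The endothelial sum of Sox17-RACVEC 2 was 16138, against 5707 and 4971 in the other 2. Results for Sox17-RACVECs are therefore given with and without this library. Sox17 itself had an FPKM of 5.09, 40.1 and 200.1 in the Sox17-RACVEC libraries, was listed at 0 in the RACVECs, and was 12.01 to 83.5 in the Akt-RACVECs.

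Of the 5 genes called between Akt-RACVECs and Akt-MACs, the RefSeq promoter table used here (GRCm38.p6) holds Apln, Calcrl and Ramp3, and the stretch before the start of each is shown because the converted cells were transduced with Ets factors, although Erg was low in the RACVECs, as given above. Each sequence was found once, without mismatch, on its chromosome of NCBIM37 (mm9), the build of the deposited values. It is printed 5′ to 3′ on the strand of the gene, without the bases that GENCODE M1 places within the gene. Capitals mark matches, on either strand, to letters searched for Ets factors, which are AGGAAG and also AGGAAA, and further CGGAAG and also CGGAAA, and to ACAAT, which was searched for Sox factors.
Apln, chrX:45388031-45388280 of mm9, minus strand: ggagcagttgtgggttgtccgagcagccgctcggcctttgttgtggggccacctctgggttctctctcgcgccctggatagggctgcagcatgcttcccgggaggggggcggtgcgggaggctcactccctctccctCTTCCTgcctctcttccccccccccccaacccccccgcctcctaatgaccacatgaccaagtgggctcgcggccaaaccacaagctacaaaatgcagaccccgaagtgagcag
Calcrl, chr2:84265569-84265673 of mm9, minus strand: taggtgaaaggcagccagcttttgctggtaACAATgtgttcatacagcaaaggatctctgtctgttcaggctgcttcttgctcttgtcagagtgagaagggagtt
Ramp3, chr11:6558286-6558523 of mm9, plus strand: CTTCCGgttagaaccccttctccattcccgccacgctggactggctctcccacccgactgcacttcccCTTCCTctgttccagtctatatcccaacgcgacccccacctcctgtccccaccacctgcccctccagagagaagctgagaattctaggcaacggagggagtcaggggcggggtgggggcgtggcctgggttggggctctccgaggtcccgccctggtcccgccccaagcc

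In the whole 250 bases before the RefSeq start, the Ets letters matched 1 time for Apln, 2 times for Calcrl and 2 times for Ramp3, and ACAAT matched 2 times for Calcrl. Both Ets matches of Calcrl and 1 of its ACAAT matches lie in the 145 bases that are not printed. The Ets letters occur in 57.2% and ACAAT in 27.7% of 32851 mouse promoters of this length, and the matches overlapped each other 0 times. The core of the hypoxia response element, ACGTG, is found in 16.6% of these promoters and in 0 of the 5 windows held for the set, those of Adm and Esm1 included. These are matches of letters, not binding sites. Aplnr, Pdgfb and Ramp2 had no entry in the table.

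Apln, on the minus strand of chrX:45378323-45388030 (mm9), covered the range from LSECs to Sox17-RACVECs and Akt-LECs. Its FPKM was 225, 84.5 and 44.2 in MACs 1 to 3, and 16.6, 37.9 and 1.98 in Akt-MACs. In RACVECs it was 426, 503 and 883, in Akt-RACVECs 1465, 4165 and 1725, and in Sox17-RACVECs 3908, 1187 and 3439.5. Every library of the converted cells therefore lay above every MAC and Akt-MAC library. Among tissue ECs, Akt-LECs had 1803, 44.8 and 4799.9, Akt-liver ECs had 3167, 465 and 46.1, and LSECs had 4.07, 1.72 and 2.96. The 3 LSEC libraries were close to each other and near the floor of the scale, whereas the 3 libraries of Akt-LECs, and those of Akt-liver ECs, were far apart. In the order of the group means on the log2 scale, Sox17-RACVECs, Akt-RACVECs, Akt-LECs, RACVECs, Akt-liver ECs, MACs, Akt-MACs and LSECs, each group overlapped the next, except that MACs lay above Akt-MACs without overlap.

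Aplnr, the apelin receptor on chr2:84976517-84980079, was listed at 0 in all 3 MAC libraries, in 2 of 3 Akt-MACs, in 2 of 3 LSECs and in 1 of 3 Akt-liver ECs. The highest FPKM of these 12 libraries was 2.90. RACVECs had 34.3, 16.4 and 20.3, and Akt-LECs had 11.4, 36.6 and 5.16. The receptor was thus present in lung ECs and converted cells and near 0 in liver ECs, whether cultured or directly sorted. Akt-RACVECs had 275, 8.55 and 3056, and Sox17-RACVECs had 30.5, 519 and 5.71. In each of these 2 groups a single library held most of the FPKM of Aplnr, Akt-RACVEC 3 and the library labelled Sox17-RACVEC 2. Neighbours in the order of the means overlapped, except that Akt-LECs lay above Akt-liver ECs.

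Adm, on chr7:117771175-117773331, was found in every library, from 37.8 in Akt-LEC 2 to 2062 in Sox17-RACVEC 1. Its FPKM was 78.5, 1215 and 58.7 in MACs, 299, 56.2 and 152 in Akt-MACs, and 2013, 549 and 1850 in RACVECs. In Akt-RACVECs it was 473, 394 and 104, and in Sox17-RACVECs 2062, 83.3 and 1919. Akt-RACVECs thus lay below RACVECs in every library, while Sox17-RACVECs 1 and 3 had the level of the higher RACVEC libraries. Akt-LECs had 1237, 37.8 and 538, Akt-liver ECs had 1230.0, 599 and 683, and LSECs had 97.0, 68.1 and 101. All neighbours in the order of the group means overlapped, from RACVECs at the top through Akt-liver ECs, Sox17-RACVECs, Akt-LECs, Akt-RACVECs, MACs and Akt-MACs to LSECs.

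Calcrl, the receptor subunit on the minus strand of chr2:84170783-84265568, had its highest group mean on the log2 scale where Adm had its lowest, in LSECs. Its FPKM there was 1441, 910.4 and 1147. In Akt-RACVECs it was 758, 215 and 3112, in Akt-liver ECs 225, 444 and 271, and in Akt-LECs 151, 1774 and 364. The amniotic cells were lower, with 48.0, 83.0 and 13.7 in MACs and 16.2, 13.54 and 34.5 in Akt-MACs. RACVECs had 64.8, 155 and 40.8 and overlapped MACs. Sox17-RACVECs had 59.5, 2054.5 and 17.0, where the libraries 1 and 3 were at the level of MACs and RACVECs and the library labelled Sox17-RACVEC 2 was above every LSEC library.

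Ramp2, which makes Calcrl a receptor for adrenomedullin and lies on chr11:101107342-101120860, had the highest mean FPKM of the receptor side over the 24 libraries, 1172. Its FPKM was 3166, 2977 and 2517 in LSECs, and 2281, 1536 and 4427 in Akt-RACVECs. Akt-LECs had 340.2, 2367 and 1361, and Akt-liver ECs had 322, 940.4 and 1430.3. MACs had 85.6, 35.1 and 27.7, and Akt-MACs had 13.8, 24.9 and 2.25. These 2 groups did not overlap with each other, nor with RACVECs, which had 141, 470.2 and 325. Sox17-RACVECs had 219, 2933 and 189, again with the library labelled Sox17-RACVEC 2 far above the other 2.

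Ramp3, the other RAMP of the adrenomedullin receptor, on chr11:6558524-6577478, had another order of groups. Akt-LECs stood at the top with 638, 617 and 730.1, and the 2 groups of liver ECs were low, with 61.8, 68.6 and 51.4 in Akt-liver ECs and 44.1, 45.6 and 48.0 in LSECs. Within each of these 3 groups the SD was at most 0.21 on the log2 scale. Akt-RACVECs had 407, 191 and 751, RACVECs had 93.7, 167 and 71.9, and Sox17-RACVECs had 85.8, 416 and 156. MACs had 8.82, 65.7 and 150.2, and Akt-MACs had 29.8, 3.42 and 3.02. RACVECs lay above Akt-liver ECs, and Akt-liver ECs above LSECs, without overlap, whereas the other neighbours overlapped.

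The tip cell marker Esm1, on chr13:113999867-114008306, varied widely between the libraries of most groups. In LSECs its FPKM lay between 30 and 50.5 with a median of 39.0. Elsewhere it was 139, 1.42 and 0 in MACs, 10.2, 7.75 and 0 in Akt-MACs, and 21.0, 464 and 1.45 in RACVECs. Akt-RACVECs were low in all 3 libraries, with 2.59, 1.42 and 0. Sox17-RACVECs had 2336, 0 and 1043, Akt-LECs had 822, 0.70 and 4.25, and Akt-liver ECs had 5262, 134 and 10.5. Differences within groups made up 66.9% of its summed squares, the largest share of the set. Per degree of freedom, its variance was 14.2 within groups and 16.1 between groups. Its pooled SD within groups of 3.77 on the log2 scale was at the 99.99th percentile of all genes tested. The library labelled Sox17-RACVEC 2, which deviated by -7.07 from its group, enters these values, and they were not computed without it. The neighbours in the order of the groups all overlapped. Akt-LEC 1 and Akt-liver EC 1, where Esm1 was highest, also had a summed FPKM of 5 macrophage markers of 1404 and 956, against 0 to 18.6 in the other 4 libraries of these groups. Their mesenchymal sums were 2356 and 1297 (others 20.6 to 393), their mural sums 1755 and 1444 (others 15.6 to 87.5) and their sums of 4 epithelial markers 117 and 1270.5 (others 1.16 to 25.1). Their part in the level of Esm1 was not tested.

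Pdgfb, on the minus strand of chr15:79826330-79845238, had the smallest range of the 8 genes on the FPKM scale, from 0 in MAC 2 to 347 in Sox17-RACVEC 3. Its FPKM was 16.4, 0 and 37.1 in MACs, 52.4, 49.1 and 41.8 in Akt-MACs, and 64.8, 155 and 24.8 in RACVECs. Akt-RACVECs had 53.4, 316 and 307, and Sox17-RACVECs had 309, 95.1 and 347. Akt-LECs had 199, 22.4 and 190.1, Akt-liver ECs had 323, 79.8 and 142, and LSECs had 27.9, 33.7 and 20.5. Akt-MACs lay above MACs and above LSECs in every library, and all other neighbours in the order of the group means overlapped.

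**Figure D1:**
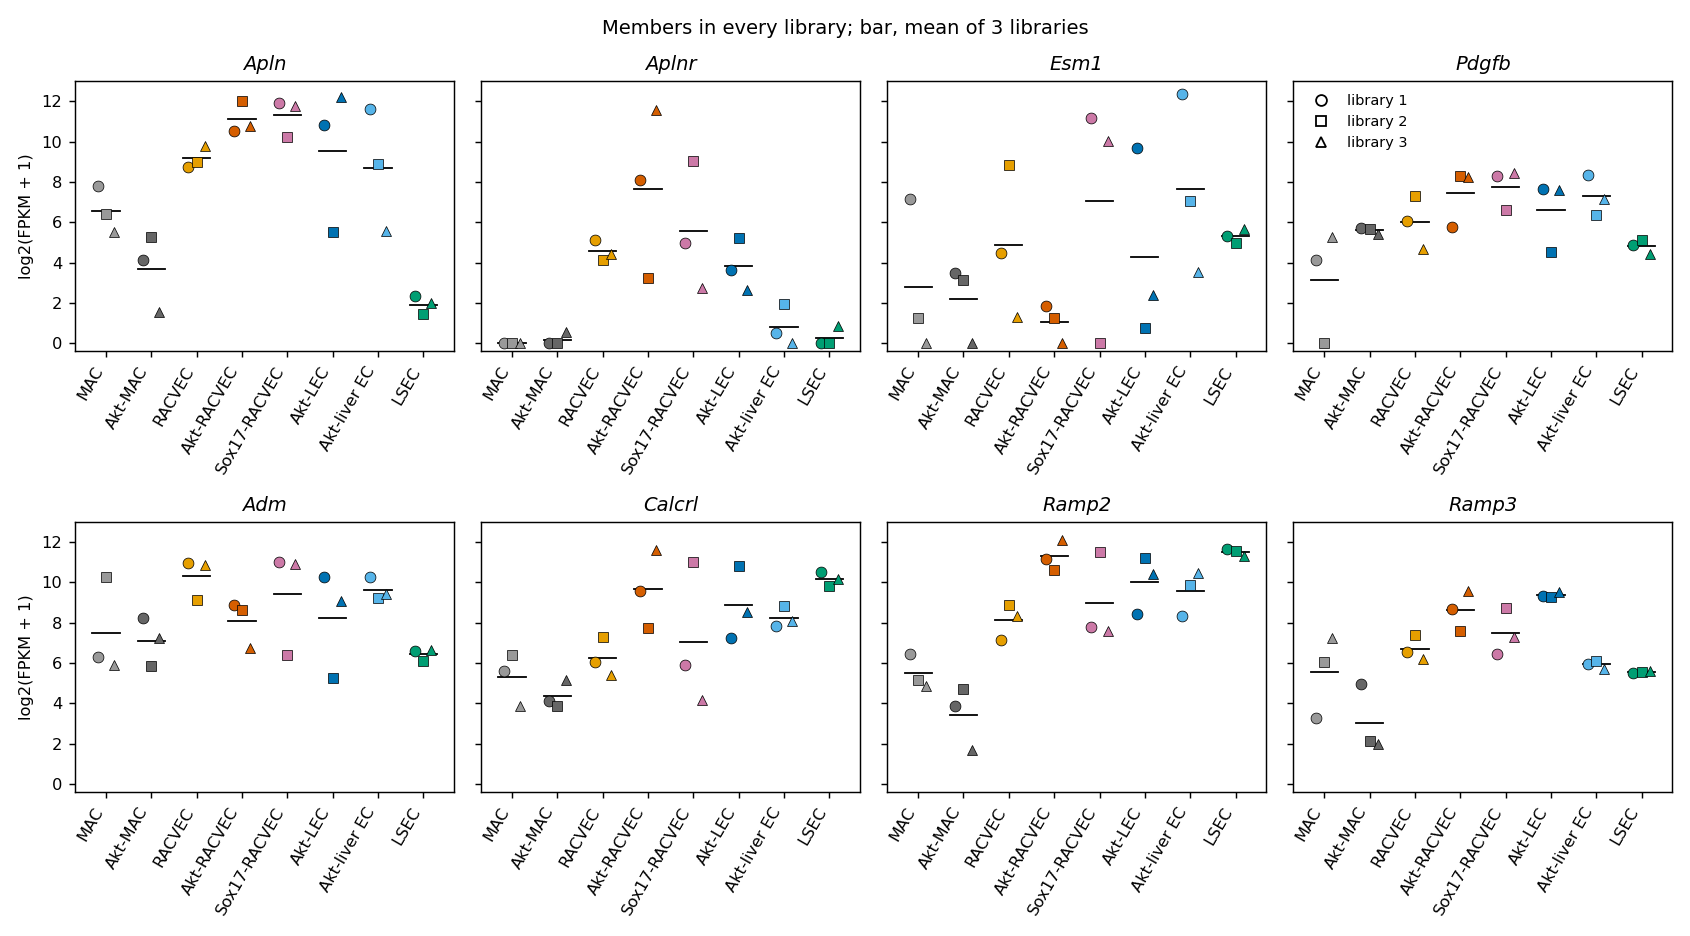
Level of each of the 8 genes as log2(FPKM + 1) on the vertical axis in the 8 groups, with 1 point per library (circle, square and triangle for libraries 1, 2 and 3) and a bar at the mean of 3 libraries. Ramp3 is tight within Akt-LECs, Akt-liver ECs and LSECs, whereas Esm1 spans from 0 to 2336 FPKM within Sox17-RACVECs.

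The conversion was examined first, by comparing RACVECs with MACs. All 8 estimates were above 0, from 0.94 to 4.56 on the log2 scale with a median of 2.62, while the median of all genes tested was 0. limma called 0 of the 8, where 2.71% of all genes were called. At an unadjusted p below 0.05 and past the same fold, 4 were higher, against 5.45% of all genes, and the criterion of the study's methods, an unadjusted unequal-variance test on FPKM, found 1, Aplnr, where 3.07% of all genes passed it. Aplnr was listed at 0 in every MAC library and so has no fold (adjusted p = 0.11). Pdgfb had a log2 fold change of 2.88 (SE 1.10, adjusted p = 0.159), Adm of 2.82 (SE 1.31, adjusted p = 0.242) and Ramp2 of 2.64 (SE 0.96, adjusted p = 0.139). RACVECs lay above MACs without overlap for 3 genes, Apln, Aplnr and Ramp2, where 11.4% of all genes did so. When the fit held RACVECs and MACs only, Aplnr was called (adjusted p = 0.0207, with 0.0207 to 0.487 over its alternatives), where 0.274% of all genes were called.

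The headers of the deposited values name RACVEC 1 like MAC 2 and RACVEC 2 like MAC 3. Within both of these pairs 7 of the 8 genes were higher in the RACVECs. The exception was Calcrl, with a log2 difference of -0.35 in the pair of RACVEC 1 and 3.41 in that of RACVEC 2. For Ramp3 the log2 differences were only 0.51 and 0.15 in these pairs. The share of all genes higher in both pairs was not counted.

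The effect of Akt on converted cells was examined by comparing Akt-RACVECs with RACVECs. The estimates were positive for 6 and negative for 2 of the 8 genes, and limma called 0, where 0.261% of all genes were called. At an unadjusted p below 0.05 past the fold, 3 were higher, against 4.79% of all genes, and these were the receptor Calcrl and the RAMPs of the set, Ramp2 and Ramp3. Calcrl had a log2 fold change of 3.41 (SE 1.29, adjusted p = 0.204), Ramp2 of 3.16 (SE 0.96, adjusted p = 0.119) and Ramp3 of 1.89 (SE 0.84, adjusted p = 0.271). The study's criterion found 0, where 3.69% of all genes passed it. In all 3 Akt-RACVEC libraries Apln, Calcrl, Ramp2 and Ramp3 were above every RACVEC library, where 10.6% of all genes were, and the ligand Adm was below every RACVEC library, where 9.15% of all genes were. Without the library labelled Sox17-RACVEC 2, which enters this comparison only through the pooled spread, Ramp2 was called with the same estimate (adjusted p = 0.0367, with 0.0367 to 0.351 when single libraries were left out), where 2.45% of all genes were called. The endothelial marker sum was higher in Akt-RACVECs, as given above, and the sum of 5 mesenchymal markers was 0.31 to 108, against 2167 to 3476 in RACVECs. Their part in the levels of the receptor genes was not tested.

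In MACs that were not converted, Akt went with other values. Compared with MACs, 6 of the 8 estimates in Akt-MACs were below 0, and limma called 0 genes of the set, where 2.81% of all genes were called. At an unadjusted p below 0.05 past the fold, 1 of the 8 was higher, against 7.54% of all genes, and 2 were lower, against 2.19%. Pdgfb was the higher, with a log2 fold change of 2.48 (SE 1.10, adjusted p = 0.314). Ramp2 and Ramp3 were lower, with -2.06 (SE 0.96, adjusted p = 0.348) and -2.50 (SE 0.84, adjusted p = 0.134). The libraries did not overlap for Pdgfb, in the higher direction shared with 10.7% of all genes, and for Apln and Ramp2 in the lower direction shared with 4.19%. The study's criterion found 0, where 1.12% of all genes passed it. Without MAC 1, Ramp3 was called at -3.62 (adjusted p = 0.028), and without Akt-MAC 1 at -3.46 (adjusted p = 0.0144), with 0.0144 to 0.442 over all libraries left out. Of all genes, 1.56% were called without MAC 1 and 5.16% without Akt-MAC 1. The sum of 5 macrophage markers was 809 to 27556 in Akt-MACs and 0.79 to 14.7 in MACs. What part this had in the levels of the 8 genes was not tested.

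Apln and Ramp2 therefore lay above every control library with Akt in RACVECs and below every control library with Akt in MACs. The difference between both effects of Akt, tested as an interaction, was 5.21 for Ramp2 (SE 1.36, adjusted p = 0.125), 4.85 for Apln (SE 2.04, adjusted p = 0.336), 4.39 for Ramp3 (SE 1.18, adjusted p = 0.135) and 4.33 for Calcrl (SE 1.82, adjusted p = 0.337), all on the log2 scale. The median of all genes was -0.12 in this contrast. limma called 0 of the 8 genes, where 0.1% of all genes were called, and 4 had an unadjusted p below 0.05 past the fold in the higher direction, where 3.09% of all genes had. Without the library labelled Sox17-RACVEC 2, the difference was called for Ramp2 (adjusted p = 0.0468, with 0.0468 to 0.247 when single libraries were left out), where 0.368% of all genes were called. Ramp3 was called without MAC 1 (adjusted p = 0.0275) and without Akt-MAC 1 (adjusted p = 0.00906), with 0.00906 to 0.287 over all libraries left out. The share of all genes called was 0.16% without MAC 1 and 2.94% without Akt-MAC 1.

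The same 4 genes and Aplnr were higher in Akt-RACVECs than in Akt-MACs, groups that both carry Akt. They differ by the Ets factors and by any difference in medium or time in culture, which cannot be told apart. The methods do not state the medium or the time in culture of the Akt-MAC libraries. limma called 5 of the 8 higher and 0 lower, where 19.5% of all genes were called and 6.15% called higher. The same 5 had an unadjusted p below 0.05 past the fold, against 8.31% of all genes in this direction. Ramp2 rose by 7.86 on the log2 scale (SE 0.96, adjusted p = 4.00e-05), Apln by 7.44 (SE 1.44, adjusted p = 0.00186) and Ramp3 by 5.57 (SE 0.84, adjusted p = 0.000274). The receptors Aplnr and Calcrl rose by 7.47 (SE 1.51, adjusted p = 0.00239) and 5.27 (SE 1.29, adjusted p = 0.00775). For these 5 genes and Pdgfb all libraries of Akt-RACVECs were above all of Akt-MACs, where 15.3% of all genes were. The log2 fold changes of Esm1, Pdgfb and Adm were between -1.16 and 1.85, with adjusted p of at least 0.24. As Aplnr was near 0 in Akt-MACs, its estimate moved with the pseudocount, from 4.64 to 10.09 over the alternatives. All 5 calls remained when any single library of these groups or the library labelled Sox17-RACVEC 2 was left out. With only these groups in the fit, Aplnr was not called (adjusted p = 0.0942, with 0.00115 to 0.149 over its alternatives), and the other 4 were, where 6.77% of all genes were called. All 5 were lost in the fit of these groups only with the replicate number as a block, which called 0 of all 14964 genes, with adjusted p of 0.088 for Apln, 0.149 for Aplnr, 0.0923 for Calcrl, 0.0984 for Ramp2 and 0.108 for Ramp3. The study's unadjusted criterion on FPKM found 0 of the 8, where 7.97% of all genes passed it. Markers of other cells moved with this comparison. The macrophage sum of Akt-MACs given above stands against 5.35 to 146 in Akt-RACVECs, the mesenchymal sum was 839 to 4034 against 0.31 to 108, and the sum of 6 mural markers was 1435 to 6470 against 5.81 to 338. Their part was not tested.

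**Figure D2:**
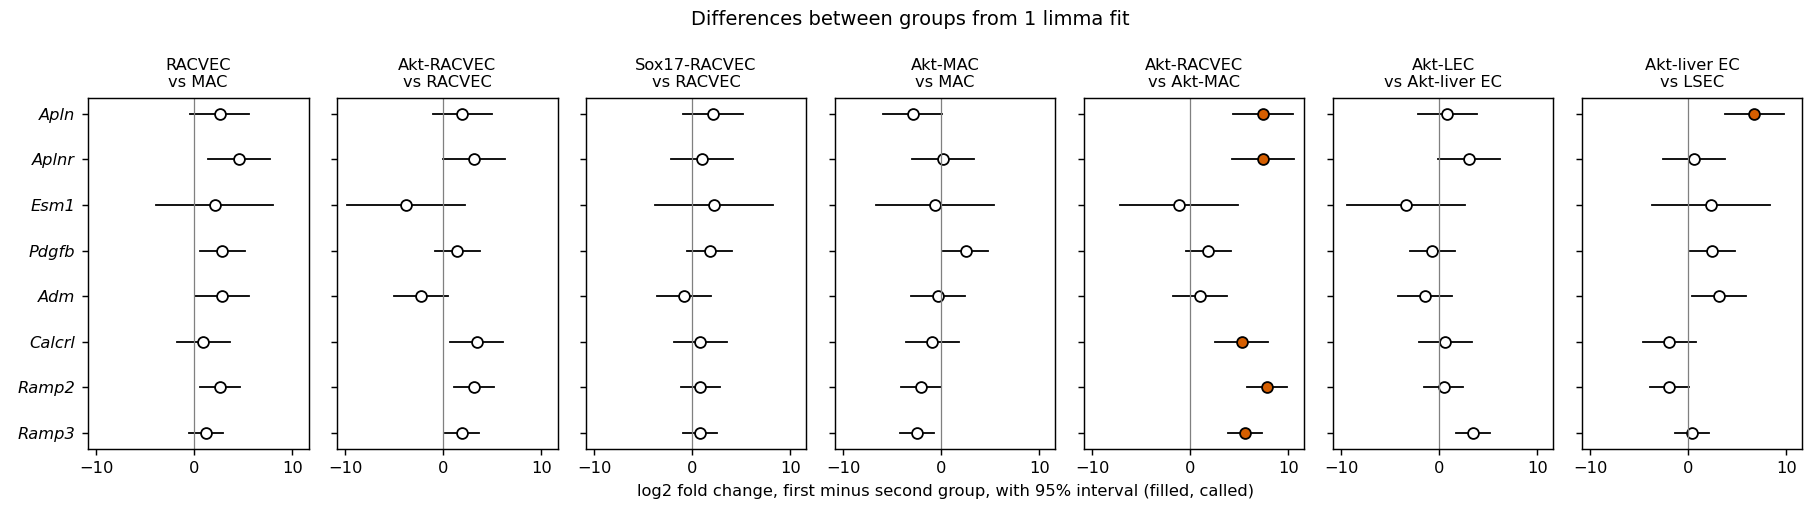
Log2 fold change of the 8 genes, first minus second group, on the horizontal axis with its 95% interval, in 7 comparisons of 1 limma fit; filled points mark called differences. Apln, Aplnr, Calcrl, Ramp2 and Ramp3 are filled for Akt-RACVECs against Akt-MACs, with estimates from 5.27 to 7.86, and Apln for Akt-liver ECs against LSECs.

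Sox17 was added to RACVECs in Sox17-RACVECs, which were compared with the same RACVEC libraries as the Akt-RACVECs were. limma called 0 of the 8 genes, where 0.00668% of all genes were called, and 0 had an unadjusted p below 0.05 past the fold, where 4.7% of all genes had. The study's criterion also found 0, where 1.13% of all genes passed it. The estimates were -0.87 for Adm, 1.03 for Aplnr, 0.80 for Calcrl and 0.83 for Ramp2, and between 0.77 and 2.20 for the other 4 genes. Apln was the only gene whose 3 libraries all lay above the RACVECs, where 4.05% of all genes did so. Left without the library labelled Sox17-RACVEC 2, the estimates for ligands and tip cell genes were 5.74 for Esm1 (95% interval 0.07 to 11.41), 2.67 for Apln (-0.76 to 6.10), 2.36 for Pdgfb (-0.23 to 4.94) and 0.65 for Adm (-2.02 to 3.32). Those for the receptor side were -1.19 for Calcrl (-3.36 to 0.98), -0.69 for Aplnr (-3.78 to 2.40), -0.45 for Ramp2 (-2.28 to 1.37) and 0.15 for Ramp3 (-1.74 to 2.05). Again 0 of the 8 were called, where 0.0601% of all genes were called. Esm1 was alone in having an unadjusted p below 0.05 (adjusted p = 0.866), and the share of all genes at this threshold was not counted. The signs of Adm, Aplnr, Calcrl and Ramp2 thus turned with this library. These intervals do not show that Sox17 left the genes as they were.

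When the converted cells with Sox17 were set against those with Akt, limma called 0 of the 8 genes, where 0.0% of all genes were called. At an unadjusted p below 0.05, where 1.24% of all genes were higher and 2.79% lower past the fold, Esm1 was higher in Sox17-RACVECs with a log2 fold change of 6.03 (SE 2.87, adjusted p = 0.644) and Ramp2 was lower with -2.33 (SE 0.96, adjusted p = 0.594). The libraries overlapped for all 8 genes, while 8.15% of all genes did not overlap, and the study's criterion found 0, where 0.715% of all genes passed it. Without the library labelled Sox17-RACVEC 2, limma called Calcrl, with a log2 fold change of -4.60 (SE 1.03, adjusted p = 0.0255), and Ramp2, with -3.61 (SE 0.87, adjusted p = 0.0355, with 0.0355 to 1 over the libraries left out), where 2.27% of all genes were called. Esm1 then had 9.57 (SE 2.69, adjusted p = 0.066), Aplnr -3.79 (SE 1.47, adjusted p = 0.183) and Adm 2.88 (SE 1.27, adjusted p = 0.249). The receptor subunit and its partner were thus below their levels in Akt-RACVECs in both remaining libraries, at 59.5 and 17.0 FPKM for Calcrl and 219 and 189 for Ramp2.

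Converted cells were next compared with cultured lung ECs. Against Akt-LECs, limma called 0 of the 8 genes in RACVECs, Akt-RACVECs and Sox17-RACVECs, where 0.261%, 0.00668% and 0.0735% of all genes were called. Ramp3 was lower in RACVECs, with a log2 fold change of -2.65 (SE 0.84, adjusted p = 0.201) and no overlap of libraries, as for 7.68% of all genes. It was also lower in Sox17-RACVECs, with -1.89 (SE 0.84, adjusted p = 0.571) and no overlap, as for 6.44% of all genes. The study's criterion found Ramp3 in both, where 2.31% of all genes passed it for RACVECs and 1.2% for Sox17-RACVECs. Aplnr was higher in Akt-RACVECs, with 3.82 (SE 1.51, adjusted p = 0.448). The libraries of these groups overlapped for all 8 genes, while 11.9% of all genes did not overlap, and the estimate was 1.85 to 6.01 when single libraries were left out. The number of the 8 genes at an unadjusted p below 0.05 was 1 in each of these comparisons, where 4.11% of all genes were lower in RACVECs, 1.66% higher in Akt-RACVECs and 3.89% lower in Sox17-RACVECs past the fold, and the study's criterion found 0 for Akt-RACVECs, where 0.989% of all genes passed it. Without the library labelled Sox17-RACVEC 2, 5 of the 8 had an unadjusted p below 0.05 in Sox17-RACVECs against Akt-LECs. The share of all genes at this threshold was not counted for that fit. Of the 5, those lower were Calcrl with -3.80 (SE 1.03, adjusted p = 0.108), Ramp2 with -2.34 (SE 0.87, adjusted p = 0.257) and Ramp3 with -2.50 (SE 0.90, adjusted p = 0.239). Higher were Esm1 with 6.33 (SE 2.69, adjusted p = 0.341) and Adm with 2.75 (SE 1.27, adjusted p = 0.391), and limma again called 0 of the 8, where 0.735% of all genes were called.

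Between the cultured ECs of lung and liver, Ramp3 stood out by its tight groups. Its mean FPKM in Akt-liver ECs was 60.6 ± 8.63 (SD, n = 3), and in Akt-LECs it was 662 ± 60.05 (SD, n = 3). The log2 fold change was 3.43, higher in lung (SE 0.84, 95% interval 1.68 to 5.19). limma called 0 of the 8 genes in this comparison, where 0.0134% of all genes were called, since Ramp3 had an adjusted p of 0.613. The spread of the fit over 8 groups is set by the more variable groups too. With only Akt-LECs and Akt-liver ECs in the fit, the SE was 0.14 and Ramp3 was called (adjusted p = 0.0311, with 0.0311 to 0.86 over its alternatives), and it was the 1 gene called among all genes. The study's criterion found Ramp3 as well, where 0.682% of all genes passed it. Ramp3 and Aplnr were above every Akt-liver EC library in every Akt-LEC library, where 2.75% of all genes were. The remaining 7 genes had estimates from -3.38 to 3.00. Ramp3 was the only gene of the set with an unadjusted p below 0.05, past the fold and in the direction shared with 1.12% of all genes.

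Cultured and directly sorted liver ECs were compared last. Apln rose by 6.76 on the log2 scale in Akt-liver ECs over LSECs (SE 1.44, adjusted p = 0.00144) and was the 1 gene of the 8 that limma called, where 27.0% of all genes were called and 14.1% called higher. Akt-liver ECs differ from LSECs by Akt, culture and isolation together, which cannot be told apart. Adm had a log2 fold change of 3.17 (SE 1.31, adjusted p = 0.0693) and Pdgfb of 2.48 (SE 1.10, adjusted p = 0.0905), and both were higher in every library. With Apln these made 3 of the 8 at an unadjusted p below 0.05 past the fold, against 16.4% of all genes in this direction. Adm was called without the library labelled Sox17-RACVEC 2 (adjusted p = 0.0369, with 0.0369 to 0.162 over the libraries left out), where 27.9% of all genes were called. No overlap was seen for 4 genes in the higher direction, Apln, Adm, Pdgfb and Ramp3, where 27.7% of all genes did not overlap, and for 2 in the lower direction, Calcrl and Ramp2, where 24.9% did not. With only these 2 groups in the fit, limma called Adm (adjusted p = 0.00272), Pdgfb (adjusted p = 0.0226), Apln and Calcrl, 4 of the 8 where 28.0% of all genes were called, and the alternatives ranged from 0.00272 to 0.08 for Adm and from 0.0226 to 0.207 for Pdgfb. The study's criterion found Calcrl and Ramp2, 2 of the 8 where 18.7% of all genes passed it. Other cells moved with this comparison. The sum of 6 hepatocyte markers was 1956 to 11319 in LSECs and 0 to 66.8 in Akt-liver ECs, that of 5 macrophage markers was 9009 to 14902 and 0 to 956, and that of 2 red blood cell markers was 10275 to 10897 and 0.75 to 1.07. Their part in the levels of the 8 genes was not tested.

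The balance of the RAMPs was compared by the ratio of Ramp2 to Ramp3 in FPKM + 1, which is on a scale per length and can be taken within each library. It was 70.3, 63.9 and 51.4 in LSECs, 5.15, 13.53 and 27.3 in Akt-liver ECs, and 0.53, 3.83 and 1.86 in Akt-LECs. The LSECs had the highest ratios of the 24 libraries and Akt-LECs did not overlap with either group of liver ECs. Akt-RACVECs had 5.60, 7.999 and 5.89 and RACVECs 1.504, 2.81 and 4.47, without overlap. Sox17-RACVECs had 2.53, 7.03 and 1.21, MACs 8.82, 0.54 and 0.19, and Akt-MACs 0.48, 5.86 and 0.81. The ratio of Adm to Calcrl was 0.07, 0.08 and 0.09 in LSECs, and 30.6, 3.52 and 44.3 in RACVECs. It was 0.62, 1.83 and 0.03 in Akt-RACVECs and so below RACVECs in every library. In Sox17-RACVECs it was 34.1, 0.04 and 106.5, the widest spread of a group.

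**Figure D3:**
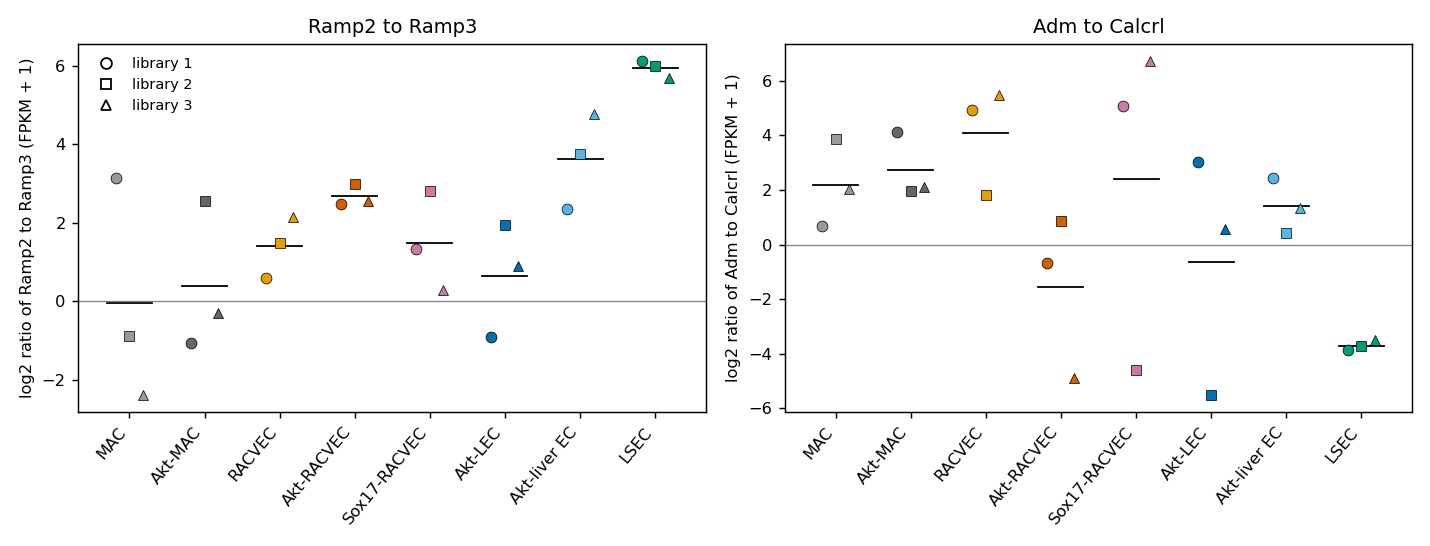
Log2 ratios, in FPKM + 1, of Ramp2 to Ramp3 (left) and of Adm to Calcrl (right) for each library by group; bars are means of 3 libraries and the line at 0 marks equal levels. LSECs have the highest ratio of Ramp2 to Ramp3, from 51.4 to 70.3 before the log, and low ratios of Adm to Calcrl.

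Within groups, the ligands and tip cell genes (Apln, Esm1, Pdgfb, Adm) and the receptor side (Aplnr, Calcrl, Ramp2, Ramp3) departed from the group means on average in opposite directions in 14 of 24 libraries and in the same direction in 10. The library labelled Sox17-RACVEC 2 departed from its group on average by -3.10 for the first 4 genes and by 2.80 for the other 4, on the log2 scale. For Akt-LEC 2 these values were -3.12 and 1.11, and for Akt-RACVEC 3 they were -0.48 and 1.92. The reverse was seen in Akt-LEC 1, with 2.45 and -0.86, and in Akt-liver EC 1, with 2.33 and -0.48. Both sides moved alike in RACVEC 2, with 0.97 and 0.51, and in Akt-MAC 3, with -1.08 and -0.40. As a description over 24 libraries after removal of the group means, Pearson's r was -0.71 (Spearman's rho -0.66) between Adm and Ramp2, and -0.56 without the 2 libraries farthest from the median of Adm. It was 0.80 between Aplnr and Calcrl (rho 0.66, and 0.83 without the 2 farthest), 0.68 between Ramp2 and Calcrl (rho 0.51) and 0.59 between Apln and Esm1 (rho 0.64). For Apln and its receptor Aplnr it was -0.33. The 2 libraries farthest for Aplnr were Akt-RACVEC 2 and 3, so the library labelled Sox17-RACVEC 2 stays in the value of 0.83. It deviated by 3.44 for Aplnr and by 3.97 for Calcrl. No correlation was computed without this library alone. The points share the libraries and their depth, and 28 pairs of genes were computed.

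**Figure D4:**
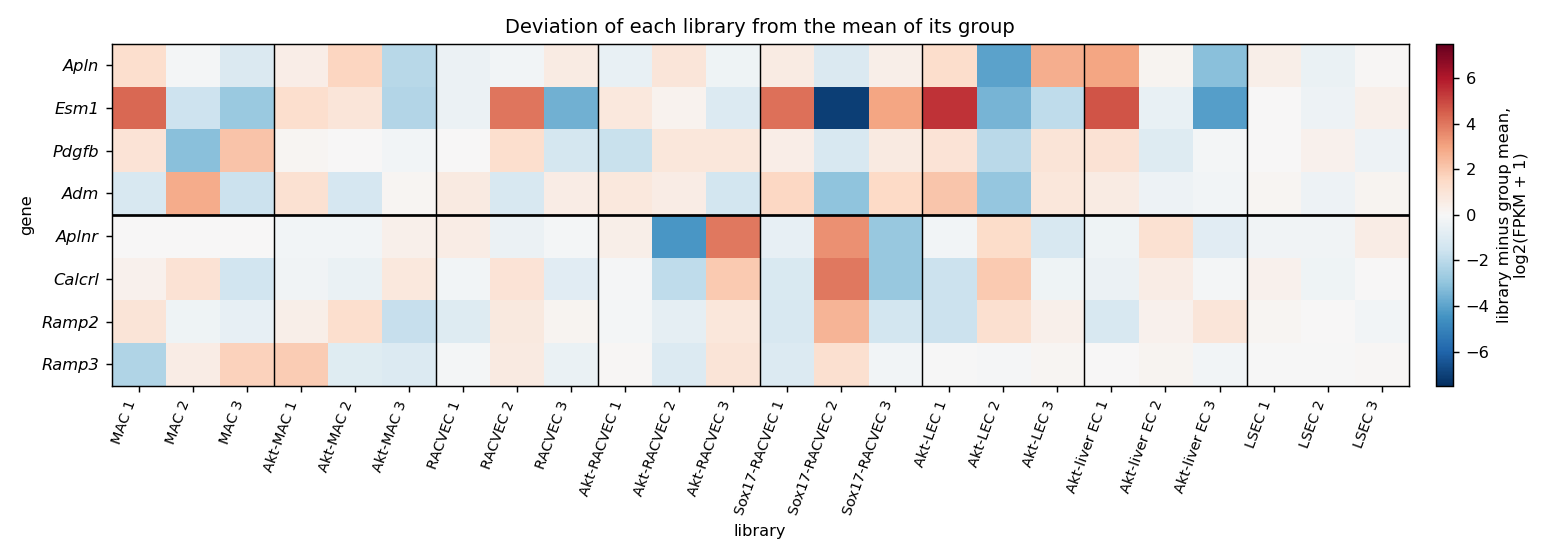
Deviation of each of the 24 libraries from the mean of its group in log2(FPKM + 1), shown by colour (red above, blue below), for ligands and tip cell genes above the horizontal line and receptors and RAMPs below it. Sox17-RACVEC 2 is blue above the line and red below it, with the largest deviation, -7.07, for Esm1.

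The genes with the most similar pattern were sought among 11691 genes whose FPKM averaged 10 or more, by Pearson's r of log2(FPKM + 1) over 24 libraries. For Ramp2 they were Ushbp1 (0.94), Npr1 (0.94) and Icam2 (0.93), and for Calcrl they were Acer2 (0.92), Caskin2 (0.92) and Tek (0.91). Apln was most like AA467197 (0.90), Cgnl1 (0.89) and Trim16 (0.88), and Aplnr was most like Hmgn5 (0.84), Cldn15 (0.83) and Mrtfb (0.80). For Adm they were Phb2 (0.90), Slc1a5 (0.88) and Fbl (0.87). Likeness was lower for Ramp3, with Armcx4 (0.84), Gm15455 (0.81) and Ssr2 (0.80), for Pdgfb, with Gatad2a (0.81), Jmjd4 (0.80) and Mgat4a (0.78), and for Esm1, with Tm4sf1 (0.74), Eml1 (0.73) and Tbx4 (0.73).

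Other genes of the 2 peptide pathways were examined as a list of 12, of which 9 could be tested. Pam, the enzyme that amidates adrenomedullin, fell in RACVECs against MACs (log2 fold change -1.72, adjusted p = 0.0167), the 1 gene of the list called there. Between Akt-RACVECs and Akt-MACs, 1 was called higher and 3 lower. Ackr3, a scavenger receptor that binds adrenomedullin, rose by 4.37 (adjusted p = 0.0317), from 15.96 to 58.5 FPKM in Akt-MACs to 201 to 2223 in Akt-RACVECs. Pam fell by 1.68 (adjusted p = 0.00471). Ramp1, the RAMP of the calcitonin gene-related peptide receptor, and the peptidase Mme were listed at 0 in all 3 Akt-RACVECs, against 4.41 to 45.1 and 7.93 to 15.0 FPKM in Akt-MACs (adjusted p = 0.00015 and 0.0201). In Akt-MACs, Ramp1 was higher than in MACs by 2.30 (adjusted p = 0.0408). Akt-liver ECs had 2 genes called higher than LSECs, the protease Furin (2.11, adjusted p = 1e-05) and Pam (1.37, adjusted p = 0.00905), and Ramp1 called lower (-3.31, adjusted p = 3e-04), with 0 to 0.57 FPKM against 6.53 to 14.3. In the other comparisons of groups limma called 0 of the 9, where 0.0% to 0.261% of all genes were called. Between 0 and 3 of the 9 had an unadjusted p below 0.05 past the fold. The share of all genes at this threshold was not set beside that count. Of all genes, 2.71% were called in RACVECs against MACs and 2.81% in Akt-MACs against MACs. The share was 19.5% in Akt-RACVECs against Akt-MACs and 27.0% in Akt-liver ECs against LSECs.

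Of 15 further tip cell genes, all tested, RACVECs had 3 called higher than MACs, namely Kdr, the VEGF receptor (4.87, adjusted p = 0.00019), Flt4 (4.51, adjusted p = 0.0257) and the guidance receptor Robo4, which was listed at 0 in the MACs. Akt-RACVECs had 5 called higher than Akt-MACs, among them Kdr (6.99), Cd34 (5.22, adjusted p = 0.00099) and the Notch ligand Dll4 (4.89, adjusted p = 0.00236). The median of the list was -0.22 in this comparison, against -0.09 for all genes, so that the calls were not shared by most of the list. Akt-liver ECs had 4 called higher than LSECs, Angpt2 (5.31, adjusted p = 0.00599), Unc5b (5.30, adjusted p = 4e-05), Plaur (4.08, adjusted p = 0.00033) and Cd34 (3.20, adjusted p = 0.012), and 2 called lower, Nrp1 (-6.12, adjusted p = 1e-04) and Kdr (-2.08, adjusted p = 0.0144). Of 9 genes of stalk or quiescent endothelium, 2 were called in RACVECs over MACs, both higher, Tie1 (6.97, adjusted p = 2e-05) and Nrarp (6.44, adjusted p = 0.00089). In Akt-RACVECs against Akt-MACs 5 were called higher, Tie1, Tek, Nrarp, Klf2 and Flt1, and the median of the list was 4.48. LSECs were above Akt-liver ECs for Flt1 (-5.58, adjusted p = 0.00045) and Tek (-3.94, adjusted p = 0.00565), and below them for Jag1 (3.22, adjusted p = 0.00065). In the comparisons not named, limma called 0 genes of either list, where 0.0% to 2.81% of all genes were called. Up to 4 of a list had an unadjusted p below 0.05 past the fold. These were 4 tip cell genes lower in RACVECs than in Akt-LECs, where 4.11% of all genes were lower. Likewise 4 stalk or quiescent genes were higher in Akt-RACVECs than in RACVECs, where 4.79% of all genes were higher. Kdr of the first list and Tie1 and Tek of the second are also among the endothelial markers summed above. Of all genes, 2.71% were called in RACVECs against MACs. In Akt-RACVECs against Akt-MACs 19.5% were called and 6.15% called higher. In Akt-liver ECs against LSECs 27.0% were called and 14.1% called higher.

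Since Adm is a gene induced by hypoxia, 10 other such genes were counted beside it. Akt-liver ECs had 4 of the 10 called higher than LSECs and 0 lower, Egln3 (5.18, adjusted p = 0.00051), the glucose transporter Slc2a1 (4.75), Pgk1 (2.57, adjusted p = 0.00021) and Vegfa (1.76, adjusted p = 0.0196), and the median of the list was 1.69 against 0.08 for all genes. Of all genes, 27.0% were called in this comparison and 14.1% called higher. The summed FPKM of the list was 1624 to 1943 in LSECs and 2977 to 5243 in Akt-liver ECs. Akt-RACVECs against Akt-MACs had 1 called higher, Egln3 (3.15, adjusted p = 0.0262), and 1 called lower, Ndrg1 (-3.46, adjusted p = 0.0184). There 19.5% of all genes were called and 6.15% called higher. In RACVECs against MACs, where Adm had an unadjusted p below 0.05, limma called 0 of the 10, where 2.71% of all genes were called. Of the 10, 4 were higher at an unadjusted p below 0.05 past the fold, against 5.45% of all genes. For the partners of Pdgfb, 5 other Pdgf ligands and receptors, limma called 0 in all comparisons, where 0.0% to 27.0% of all genes were. At most 2 of the 5 had an unadjusted p below 0.05 past the fold in any comparison. The share of all genes at this threshold was not set beside that count.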

How the data were processed

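RNA was sequenced as paired reads of 51 bases from TruSeq libraries on a HiSeq2000. The authors mapped reads with TopHat (the methods print the build as mmp9, the submitters' notes as mm9) and deposited FPKM from Cufflinks, run with its upper-quartile scaling and its bias correction, as 27583 RefSeq transcripts per library with 2 decimals. Versions, the annotation release and read numbers are not given in the sources used here, so depth is unknown, and an FPKM of 0 may be a failed estimate. Precision rests on the spread of 3 libraries. The methods call an independently isolated culture a biological replicate for MACs. For the other groups the libraries are called individual isolates, without saying whether these came from separate animals, so that p-values measure the spread between these libraries.

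RefSeq names were joined to current symbols for 26934 transcripts and values summed per symbol. Positions are from GENCODE M1 on NCBIM37. Groups were compared with limma 3.58.1 (R 4.3.3) on log2(FPKM + 1), in 1 two-sided fit over 8 groups with an intensity trend, and Benjamini-Hochberg adjustment over the 14964 genes whose FPKM averaged 1 or more. The procedure was run on simulated data with independent noise and the same spread of a gene in all 8 groups. The groups of these data differ in spread, which that run does not cover. Figures and tables used Python 3.11.15, numpy 2.4.6, pandas 2.3.3, scipy 1.17.1 and matplotlib 3.10.9.

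A log2 fold change is printed for members with an unadjusted p below 0.05 in a comparison, and the others are given by their range, except where the library labelled Sox17-RACVEC 2 was left out, where all 8 are given for Sox17-RACVECs against RACVECs and those with an unadjusted p below 0.05 in that fit for the other comparisons of Sox17-RACVECs. Genes of other lists are named where called, and the 3 most alike genes per member are named. The members and lists were chosen with earlier results of these data known. Alternatives were pseudocounts of 0.1 and 10, no filter or one at a mean FPKM of 10, scaling by the median shift, transcripts kept apart, the groups compared only, with and without the replicate number as a block, the study's criterion, and each library left out. Leaving out Sox17-RACVEC 2 in every comparison and the pairs named in the headers were added after seeing the data.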

Additional observations from a re-analysis of the deposited data

How the results depend on the processing

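The members have 1 transcript each. In Sox17-RACVECs against RACVECs, where 0 members were called, 4 estimates changed sign when the library labelled Sox17-RACVEC 2 was left out. Over the libraries left out, Adm ranged from -1.66 to 0.65 (0.65 without it), Aplnr from -0.69 to 2.44 (-0.69), Calcrl from -1.19 to 2.23 (-1.19) and Ramp2 from -0.45 to 1.52 (-0.45). The counts of members called changed in RACVECs against MACs to 1 (Aplnr) with a pseudocount of 0.1 (2.63% of all genes called), with only these groups in the fit (0.274%) and by the study's criterion (3.07%). By that criterion the count was 0 for Akt-RACVECs against Akt-MACs, 1 (Ramp3) for each of RACVECs and Sox17-RACVECs against Akt-LECs and for Akt-LECs against Akt-liver ECs, and 2 for Akt-liver ECs against LSECs (18.7% of all genes). With only the groups compared, it was 1 (Ramp3) for Akt-LECs against Akt-liver ECs and 4 for Akt-liver ECs against LSECs (28.0% of all genes), where a pseudocount of 10 gave 2, Apln and Pdgfb (20.4%).

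With the replicate number as a block, the count was 0 for Akt-RACVECs against Akt-MACs and 2 (Adm and Apln) for Akt-liver ECs against LSECs, where 21.6% of all genes were called, and no other count changed. Same-numbered libraries did not deviate together in all 3 pairs of any comparison, so the numbers were not taken to pair the libraries. Between Akt-LECs and Akt-liver ECs the correlations of their deviations were 0.57, 0.37 and -0.05 for libraries 1 to 3. The headers name RACVEC 1 like MAC 2 and RACVEC 2 like MAC 3, and neither this check nor the block tests those pairs. Over libraries left out in turn, the count was 5 to 5 for Akt-RACVECs against Akt-MACs, 0 to 1 for Akt-RACVECs against RACVECs, for Akt-MACs against MACs and for the interaction, 0 to 2 for Sox17-RACVECs against Akt-RACVECs, 1 to 2 for Akt-liver ECs against LSECs, and 0 to 0 in the others. The 2 in the last were Adm and Apln, without the library labelled Sox17-RACVEC 2. The unknown depth and 3 libraries a group limit the precision, and wide intervals do not show that levels were alike.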

Other observations

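Some genes of the adrenomedullin family were at or near 0 in most libraries. Calcr, the calcitonin receptor, was listed at 0 in every library. Adm2, a related peptide, had a mean FPKM of 69.9 in RACVECs (4.53 to 171 by library) and of at most 8.55 in any other group, with LSECs listed at 0. Calca, which encodes calcitonin and its gene-related peptide, was above 0 only in MACs and Akt-MACs, with at most 18.6 and 53.6 FPKM. Crcp, the receptor component protein of this family, was level across groups, with group means between 83.8 and 123 FPKM. These genes were looked up from the list of the pathway after its values were seen.

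The FPKM of Akt1 was 1323 in the library labelled Sox17-RACVEC 2, the highest of the 24 libraries, against 884 and 916 in Sox17-RACVEC 1 and 3. It was 607 to 694 in RACVECs and 872 to 1281 in Akt-RACVECs. Among the 8 genes, this library had 519 FPKM of Aplnr and 2054.5 of Calcrl, and Esm1 listed at 0.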
